A study of Rattus norvegicus with 3 samples.

Results

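Slc17a7, Slc17a6, Camk2a, Camk2b and Neurod2 are 5 genes of excitatory, glutamate-releasing neurons, and they were measured in rat brainstem after traumatic brain injury (TBI). They were chosen by their measured differences, with the values on every array known, and Slc17a7, Camk2a and Neurod2 were set against Slc17a6 and Camk2b. Their own values are therefore a description and carry no test. The array holds 10 probe sets that name only 1 of these genes, and the 5 genes are 5 of 14217 named genes. Each gene takes its value from the probe set with the highest mean signal. All 5 lay above a floor of 7.44 on mean log2 signal (the median of the probe sets that are not controls), as did 9241 genes in all.

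The 3 Affymetrix arrays hold 1 pool of brainstem RNA each: hand acupuncture (labelled Hand Acu), TBI and Sham, all taken 1 h after modelling. The design text gives n=5 rats mixed before extraction, taken here to mean 1 pool for each group. The labels do not say whether the acupuncture rats were also injured, nor where needles were placed, and strain, sex and age are not given in the sources used here. With 1 array per group no difference has an error of its own, and every value below compares pools of RNA. Pooled tissue also cannot tell fewer cells of a type from less RNA per cell.

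Excitatory neurons load glutamate into synaptic vesicles through the transporters VGLUT1, encoded by Slc17a7, and VGLUT2, encoded by Slc17a6. In rodents VGLUT1 is typical of the cerebral cortex, the hippocampus and the granule cells of the cerebellum, and VGLUT2 of the thalamus and the brainstem. Calcium entering at the synapse activates CaMKII, a kinase built from alpha subunits (Camk2a) and beta subunits (Camk2b). The alpha subunit is most abundant in forebrain excitatory neurons and is also made by cerebellar Purkinje cells. Neurod2 encodes a basic helix-loop-helix (bHLH) transcription factor of cortical and hippocampal excitatory neurons and of cerebellar granule cells.

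Slc17a7, Camk2a and Neurod2 were lowest on the TBI array and highest on the sham array, with the hand acupuncture array between, whereas Slc17a6 was highest on the TBI array and Camk2b was nearly level. The label of the set, genes low after TBI, therefore describes 3 of its 5 genes. Genes were counted as past the threshold at a log2 difference of 0.32, which is a signal 25% higher or 20% lower. By this count 3 of the 5 were lower on the TBI than on the sham array, where 5.05% of the 9241 genes were. No gene of the 5 was higher past 0.32 there, again against 5.05% of all genes. At 1.5-fold, 2 of the 5 were lower, against 0.682% of all genes. Because these differences chose the genes, nothing is read from the counts.

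Slc17a7 had log2 signals of 9.36 with hand acupuncture, 8.87 with TBI and 9.62 in sham. The TBI array was thus low and the other arrays closer together: TBI minus sham was −0.74 (1.67-fold lower), the 19th lowest of 9241 genes. Hand acupuncture minus TBI was 0.49 and hand acupuncture minus sham −0.25. A second Slc17a7 probe set, below the floor, read 6.54 with hand acupuncture, 6.81 with TBI and 7.07 in sham. It was lower on the TBI than on the sham array by the smaller log2 difference of −0.26, and it was lowest on the hand acupuncture array.

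Camk2a had the largest TBI minus sham difference of the 5, with log2 signals of 11.82 with hand acupuncture, 11.23 with TBI and 12.01 in sham. It was −0.77 (1.71-fold lower), the 15th lowest of all genes above the floor. Bright probe sets vary little between these arrays: the 899 genes within 0.5 log2 of the mean signal of Camk2a had an SD of 0.13 for the same comparison. Hand acupuncture minus TBI was 0.59 and hand acupuncture minus sham −0.18.

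The other 3 probe sets of Camk2a did not share one pattern. The next brightest read 9.19 with hand acupuncture, 8.85 with TBI and 9.06 in sham, so it too was lowest on the TBI array, with TBI minus sham at −0.20 and hand acupuncture minus TBI at 0.34. A dimmer one read 7.66 with hand acupuncture, 8.06 with TBI and 7.79 in sham and was highest on the TBI array. The dimmest, below the floor, read 5.80 with hand acupuncture, 6.28 with TBI and 6.38 in sham, so it was lowest on the hand acupuncture array. Over the 4 further probe sets of Slc17a7 and Camk2a, 3 were lower on the TBI than on the sham array, but only 1 was higher on the hand acupuncture than on the TBI array. Averaged over all probe sets, Camk2a differed by −0.20 for TBI minus sham and 0.014 for hand acupuncture minus TBI, and Slc17a7 by −0.50 and 0.11.

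Neurod2 has 1 probe set here, which read 8.35 with hand acupuncture, 7.94 with TBI and 8.50 in sham. TBI minus sham was −0.56 (1.48-fold lower), the 72nd lowest of all genes. At this lower signal arrays vary more, and the 2189 genes of like signal had an SD of 0.26. Hand acupuncture minus TBI was 0.41 and hand acupuncture minus sham −0.15.

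Slc17a6 read 12.40 with hand acupuncture, 12.50 with TBI and 12.26 in sham. TBI minus sham was 0.24, a 1.18-fold higher signal, where the 534 genes of like signal had an SD of 0.12. Camk2b read 12.03 with hand acupuncture, 12.10 with TBI and 12.09 in sham, and its second probe set 10.35 with hand acupuncture, 10.25 with TBI and 10.28 in sham. For its brightest probe set TBI minus sham was 0.01 and hand acupuncture minus TBI −0.06.

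**Figure D1:**
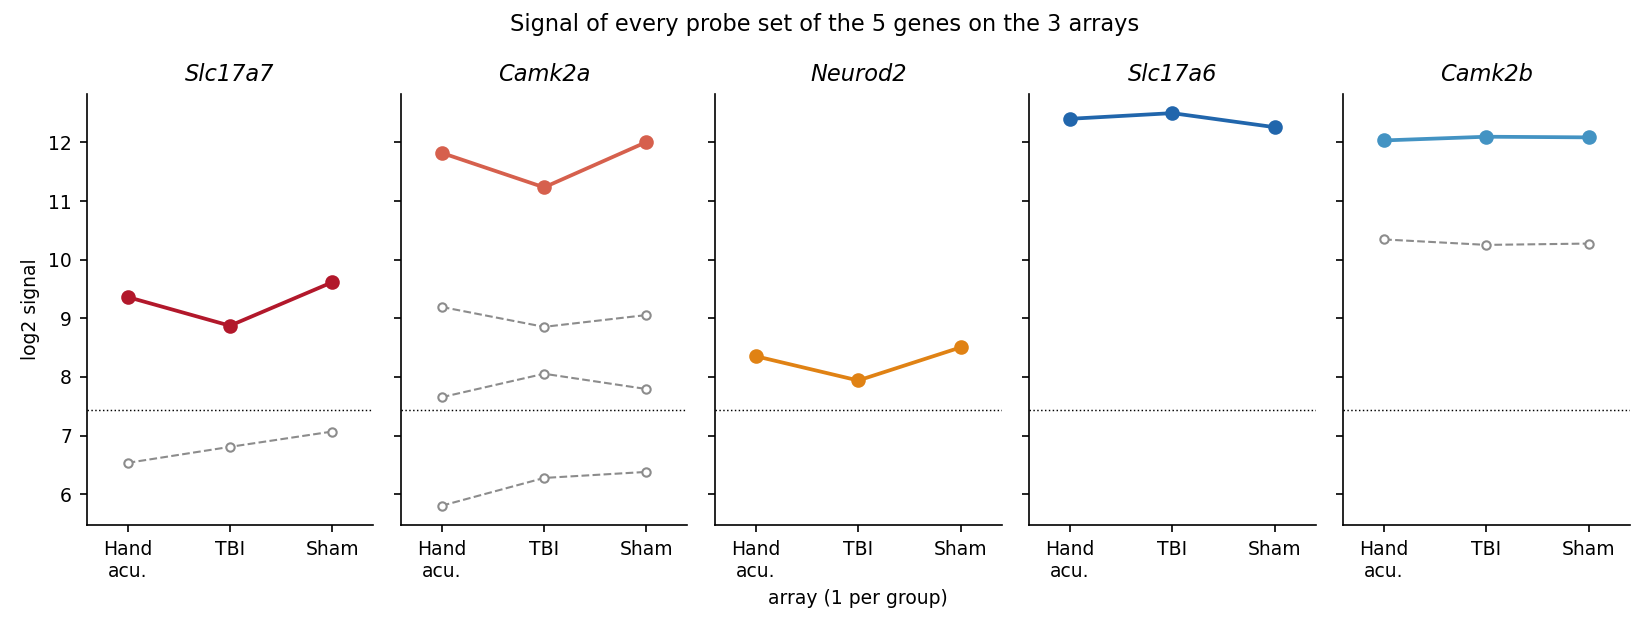
Log2 signal (vertical axis) of each probe set of the 5 genes on the hand acupuncture, TBI and sham arrays. Filled points are the brightest probe set, open points the others, lines join values of 1 probe set, and the dotted line is the floor of 7.44; the filled points of Slc17a7, Camk2a and Neurod2 dip on the TBI array, and those of Slc17a6 and Camk2b do not.

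The paralogue pairs therefore parted. In TBI minus sham, the log2 difference of Slc17a7 less that of Slc17a6 was −0.98, and that of Camk2a less that of Camk2b was −0.78. Averaged over genes, TBI minus sham was −0.69 for Slc17a7, Camk2a and Neurod2 and 0.13 for Slc17a6 and Camk2b, a gap of −0.82. The direction of this gap is fixed by how the genes were chosen. Averaging each gene over its probe sets gave −0.54.

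In the hand acupuncture to TBI comparison, Slc17a7, Camk2a and Neurod2 were each higher past 0.32 on the hand acupuncture array, 3 of the 5 genes, where 4.04% of all genes were. Camk2a was past 1.5-fold, where 0.617% of all genes were. None of the 5 was lower past 0.32 there, against 4.12% of all genes. The mean log2 difference was 0.50 for Slc17a7, Camk2a and Neurod2 and −0.08 for Slc17a6 and Camk2b. With probe sets averaged, 1 gene of the 5, Neurod2, was past 0.32. The genes were chosen with these differences known too, so nothing is read from these counts either.

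For hand acupuncture minus sham the 5 genes lay between −0.25 and 0.14. None was lower past 0.32 (5.46% of all genes were) and none higher (5.5% were). The 3 comparisons share arrays by construction, so a deviation of the TBI array alone would appear in both comparisons that use it. The TBI array was at least 0.32 below both other arrays for 3 of the 5 genes and for 1.29% of all genes. This count too describes genes chosen with these values known.

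**Figure D2:**
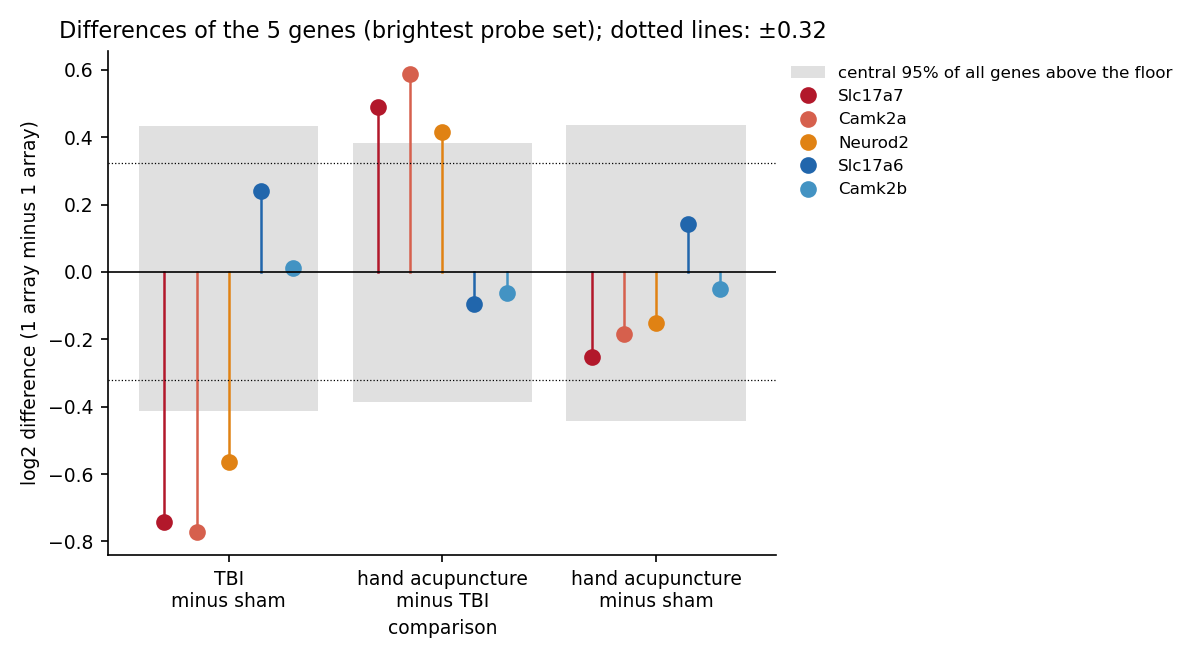
Log2 difference (vertical axis) of the 5 genes in the 3 comparisons, brightest probe set, 1 array minus 1 array. Grey boxes hold the central 95% of the 9241 genes above the floor and dotted lines mark 0.32 on either side of 0; Slc17a7, Camk2a and Neurod2 leave the box below for TBI minus sham and above for hand acupuncture minus TBI, and all 5 genes lie inside it for hand acupuncture minus sham.

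**Figure D3:**
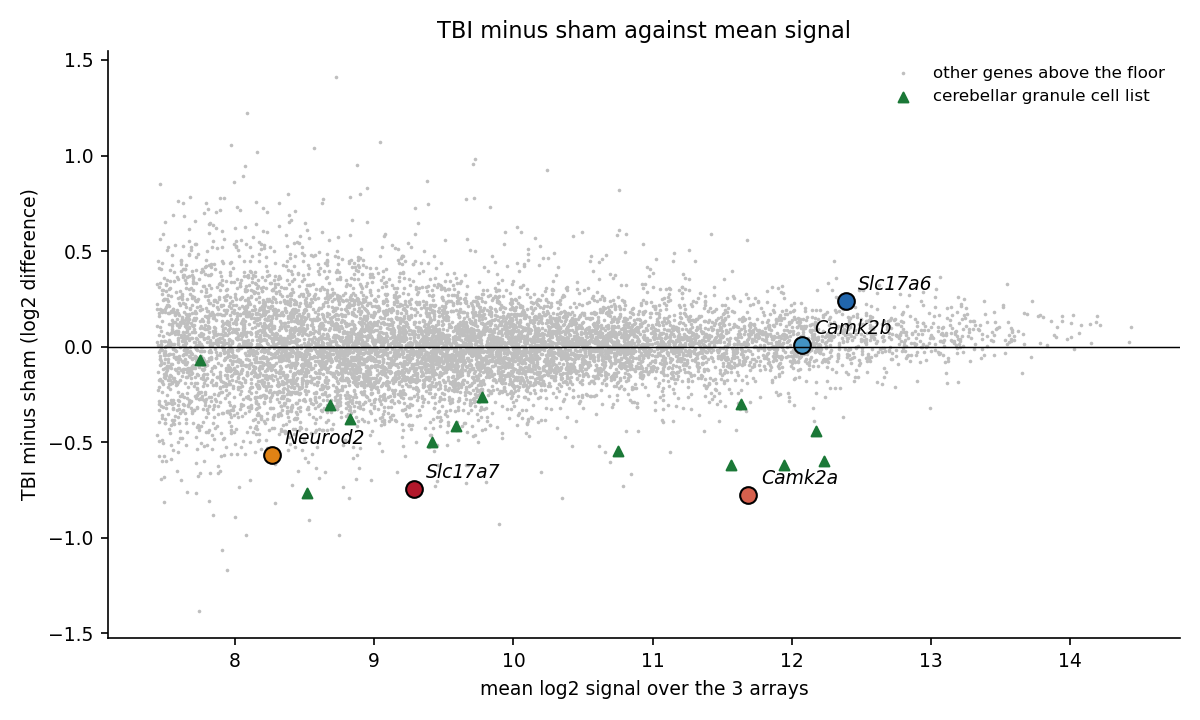
TBI minus sham (log2 difference, vertical axis) against mean log2 signal over the 3 arrays (horizontal axis) for all genes above the floor. The grey cloud narrows with signal; Camk2a lies far below it at a mean of 11.69, Slc17a7 and Neurod2 lie near its lower edge, and green triangles mark cerebellar granule cell genes.

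By their brightest probe sets Slc17a7, Camk2a and Neurod2 shared one order of the arrays, and Slc17a6 and Camk2b did not share it. The bases before each gene start are therefore shown for all 5, from RefSeq on GRCr8. Each run is the 250 bases before the start, read 5′ to 3′ on the gene's strand. They lie at chr1:104785955-104786204 (plus strand) for Slc17a7, chr18:56648930-56649179 (plus strand) for Camk2a, chr10:83824278-83824527 (minus strand) for Neurod2, chr1:110348197-110348446 (plus strand) for Slc17a6 and chr14:85147945-85148194 (minus strand) for Camk2b. Capitals mark every match to CANNTG, the E-box core that bHLH factors such as Neurod2 bind.
Slc17a7: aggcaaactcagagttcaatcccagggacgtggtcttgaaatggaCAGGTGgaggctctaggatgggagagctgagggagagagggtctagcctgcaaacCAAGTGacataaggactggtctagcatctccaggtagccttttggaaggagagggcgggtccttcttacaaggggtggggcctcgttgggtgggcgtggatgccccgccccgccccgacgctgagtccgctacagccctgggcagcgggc
Camk2a: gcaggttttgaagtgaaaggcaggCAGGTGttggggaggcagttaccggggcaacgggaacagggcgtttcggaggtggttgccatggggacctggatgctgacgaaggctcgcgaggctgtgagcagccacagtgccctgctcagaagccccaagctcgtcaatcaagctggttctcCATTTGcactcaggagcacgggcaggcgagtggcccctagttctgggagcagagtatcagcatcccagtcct
Neurod2: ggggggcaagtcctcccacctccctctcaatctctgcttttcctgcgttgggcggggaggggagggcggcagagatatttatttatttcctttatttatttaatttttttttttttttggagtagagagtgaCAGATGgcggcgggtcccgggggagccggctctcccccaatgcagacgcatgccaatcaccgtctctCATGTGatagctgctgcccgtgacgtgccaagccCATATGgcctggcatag
Slc17a6: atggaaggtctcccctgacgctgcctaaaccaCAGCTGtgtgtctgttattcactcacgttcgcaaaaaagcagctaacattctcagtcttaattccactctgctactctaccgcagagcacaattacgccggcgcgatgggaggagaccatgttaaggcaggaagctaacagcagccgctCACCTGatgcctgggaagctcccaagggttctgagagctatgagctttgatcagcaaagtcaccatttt
Camk2b: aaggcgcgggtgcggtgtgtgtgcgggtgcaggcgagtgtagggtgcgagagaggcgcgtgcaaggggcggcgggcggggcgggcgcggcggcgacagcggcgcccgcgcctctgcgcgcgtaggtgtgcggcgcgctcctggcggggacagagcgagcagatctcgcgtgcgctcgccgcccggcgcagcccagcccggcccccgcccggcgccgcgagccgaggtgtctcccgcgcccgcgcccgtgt

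CANNTG, which is its own reverse complement, occurred 2 times in the window of Slc17a7, 2 times in that of Camk2a and 3 times in that of Neurod2, against 2 times for Slc17a6 and 0 times for Camk2b. It occurred in 65.5% of 33469 rat promoter windows of this length. The narrower form CAGATG (or CATCTG on the other strand), a subset of CANNTG, was present in the Neurod2 window alone of the 5 and in 14.0% of all windows. GGGCGG (or CCGCCC), the core of the GC box, occurred 3 times for Slc17a7, 2 times for Neurod2 and 5 times for Camk2b, and in 30.5% of all windows. TGACG (or CGTCA), part of the cAMP response element, occurred 2 times for Camk2a and 1 time each for Neurod2 and Slc17a6, and in 18.2% of all windows. No motif of these 4 was shared by Slc17a7, Camk2a and Neurod2 and lacking in both Slc17a6 and Camk2b. A match describes letters only and is not a bound site.

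Other genes of the same pathways were read from lists, with medians set beside 0.00 over all genes for each comparison. Counts past 0.32 in every list below stand beside these shares of all 9241 genes. For TBI minus sham 5.05% were lower and 5.05% higher. For hand acupuncture minus TBI 4.12% were lower and 4.04% higher, and for hand acupuncture minus sham 5.46% and 5.5%. Of 10 genes that make, recycle or clear glutamate, 0 were lower and 0 higher past 0.32 on the TBI than on the sham array, with a median of 0.01. The largest differences for TBI minus sham were those of Slc38a2, a glutamine transporter (0.19), Slc1a2, the glial glutamate transporter GLT-1 (−0.17), Slc1a1, the neuronal transporter EAAC1 (0.16), and Glul, glutamine synthetase (0.09). A further probe set of Slc1a2 went the other way, at 0.17. Slc17a8, the third vesicular glutamate transporter, had no probe set that could be matched and was not analysed here.

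Of 15 genes of the calmodulin kinase pathway above the floor, 1 was lower and 1 higher past 0.32 for TBI minus sham, with a median of 0.01. Camk4, a nuclear calmodulin-dependent kinase, was the lower one at −0.39, and its other probe set, below the floor, read −0.38. Camk2n1, which encodes an inhibitor protein of CaMKII, was the higher one at 0.58, but its second probe set read −0.30. Camk2d, the delta subunit of CaMKII, differed by −0.21 and Camk1 by −0.12. None of the 15 was past 0.32 in either direction for hand acupuncture minus TBI, with a median of 0.03.

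Among postsynaptic proteins that CaMKII binds or phosphorylates, 2 of 13 were lower past 0.32 on the TBI than on the sham array. None was higher, where 5.05% of all genes were lower and 5.05% higher. The list median was −0.13, but 0.007 with all probe sets of each gene averaged. Lrrc7, the gene of densin, a scaffold that binds CaMKII, read 7.79 with hand acupuncture, 7.16 with TBI and 7.67 in sham, so it too was low on the TBI array. Grin2a, an NMDA receptor subunit, differed by −0.43 for TBI minus sham, Dlgap1, a scaffold of the postsynaptic density, by −0.30 and Kalrn, a signalling protein of dendritic spines, by −0.30. All 3 further probe sets of Dlgap1 were also below 0, while those of Grin2a and Kalrn, which are below the floor, went both ways, with one of Kalrn at 1.52. Of the 13, 1 was higher past 0.32 for hand acupuncture minus TBI, Lrrc7 (0.63). In that comparison 1 was lower, Shank3 (−0.93), named after its value was seen.

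Of 7 other neuronal bHLH factors and partners above the floor, 1 was lower past 0.32 for TBI minus sham and none higher, with a median of −0.13. This was Neurod1, which is abundant in cerebellar granule cells, with log2 signals of 12.12 with hand acupuncture, 11.99 with TBI and 12.58 in sham. Unlike Neurod2, Neurod1 stayed low on the hand acupuncture array, with hand acupuncture minus sham at −0.46. Tcf4, a bHLH partner, differed by −0.24 for TBI minus sham, Bhlhe22 by −0.16 and Tcf12 by 0.16. Neurod6, a forebrain relative of Neurod2, differed by −0.08 and was named after its value was seen.

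Slc17a7, Camk2a and Neurod2 are made by several kinds of neuron, so lists of those cells were read on the same arrays. Of 16 cerebellar granule cell markers, 13 were above the floor, all 13 were below 0 for TBI minus sham and 9 were lower past 0.32, with a median of −0.44. Their signal, summed over 15 matched genes, was 22872 with hand acupuncture, 22458 with TBI and 31797 in sham. Among them, Fat2, an atypical cadherin, differed by −0.76 for TBI minus sham, and Gabra6, the GABA-A receptor subunit that defines these cells, by −0.62. Reln, which encodes the secreted protein reelin, differed by −0.62 and Neurod1 by −0.60. The second probe sets of Gabra6 and Reln read −0.91 and −0.86, so they too were lower on the TBI array. Of 11 Purkinje cell markers above the floor, 5 were lower past 0.32 for TBI minus sham, with a median of −0.26 and summed signals of 18393 with hand acupuncture, 19191 with TBI and 23658 in sham. The difference was −0.76 for Slc1a6, the Purkinje cell glutamate transporter EAAT4, −0.70 for En2, a homeobox gene, and −0.55 for both Pcp2 and Ppp1r17. Of the 11 Purkinje cell markers, 10 were below 0 for TBI minus sham and 1 was above, Rgs8 at 0.11. Gng13 was nearly level at −0.02, and both were named after their values were seen. The granule cell markers Zic1 and Barhl1 were below the floor. The part of cerebellar tissue in the low TBI values of Slc17a7, Camk2a and Neurod2 was not tested.

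The same lists were read against the hand acupuncture array. Between hand acupuncture and TBI the granule cell median was −0.06, and 1 of 13 genes was lower past 0.32 and 0 higher. The Purkinje cell median was −0.09, and 0 of 11 genes were past 0.32 either way. Slc17a7, Camk2a and Neurod2 were 0.49, 0.59 and 0.41 higher in the same comparison by their brightest probe sets. The granule cell median for hand acupuncture minus sham was −0.46, with 10 of 13 lower past 0.32, against values of −0.25, −0.18 and −0.15 for the 3 genes. By these probe sets the 3 genes lay nearer to the sham than to the TBI array with hand acupuncture. With all probe sets averaged this held for Neurod2 alone: hand acupuncture minus TBI was 0.11 for Slc17a7 and 0.014 for Camk2a, and hand acupuncture minus sham −0.39 and −0.19.

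Markers of cortical and hippocampal excitatory neurons lay on both sides of 0. Of 14 above the floor, 0 were lower and 2 higher past 0.32 for TBI minus sham, with a median of −0.05. Of the 2 higher, Lhx2 was only just past the threshold. Signals summed over 19 matched genes, 5 of them below the floor, were 34009 with hand acupuncture, 32029 with TBI and 32238 in sham. Bcl11b, a transcription factor of deep-layer cortical neurons and of striatal neurons, was 0.46 higher on the TBI array, Lhx2 0.32, Arpp21 0.27 and Itpka, an inositol trisphosphate kinase of dendritic spines, 0.23. The second brightest probe set of Bcl11b read −0.14, and one of the 2 further probe sets of Arpp21 also went the other way, at −0.20. Tbr1, Emx1, Emx2, Fezf2 and Rorb, defining genes of the cortex, were below the floor. For hand acupuncture minus TBI this list had a median of 0.09, with 11 of 14 genes above 0, 0 higher past 0.32 and 1 lower.

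The list for excitatory neurons of brainstem and spinal cord, the cells in which Slc17a6 is typical, also holds regional homeobox genes. Its 6 genes above the floor were all above 0 for TBI minus sham, with a median of 0.20, beside 0.24 for Slc17a6. Of these 6, 2 were higher past 0.32, namely Hoxa5, a homeobox gene of caudal hindbrain and spinal cord (1.22), and Calca, the CGRP gene (0.53), whose other probe sets, below the floor, read 0.32 and −1.53. Tac1, the substance P precursor, was 0.22 higher and Hoxb3 0.18. Another 4 genes of the list were below the floor and went both ways for TBI minus sham. Tlx3 differed by −1.07, Barhl2 by −0.65, Ebf2 by 0.65 and Pou4f1 by 0.09. The list has 5 further genes, which were not analysed here. The median of the 6 for hand acupuncture minus sham was 0.24, beside 0.14 for Slc17a6.

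Genes of neurons at large and of inhibitory neurons had medians close to 0 for TBI minus sham. Of 14 pan-neuronal genes none was past 0.32 for TBI minus sham, with a median of 0.05. Rbfox3, the gene of the neuronal nuclear protein NeuN, was the lowest at −0.31, and its other probe set read −0.26. Uchl1 and Syp were 0.22 higher each and Nefm 0.13. Of 8 inhibitory neuron genes 1 was higher, the peptide gene Sst at 0.42, with a median of 0.03. Pvalb differed by −0.24, Dlx1 by 0.19 and Npy by 0.18. Below the floor, Glra1 differed by −0.34, Slc6a5 by −0.12 and Dlx5 by 0.24. Past 0.32 for hand acupuncture minus sham, 1 of the 8 was lower, Pvalb (−0.33), and 2 were higher, Dlx1 (0.54) and Npy (0.35). For hand acupuncture minus TBI 1 was higher, Dlx1 (0.35), and 0 were lower.

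**Figure D4:**
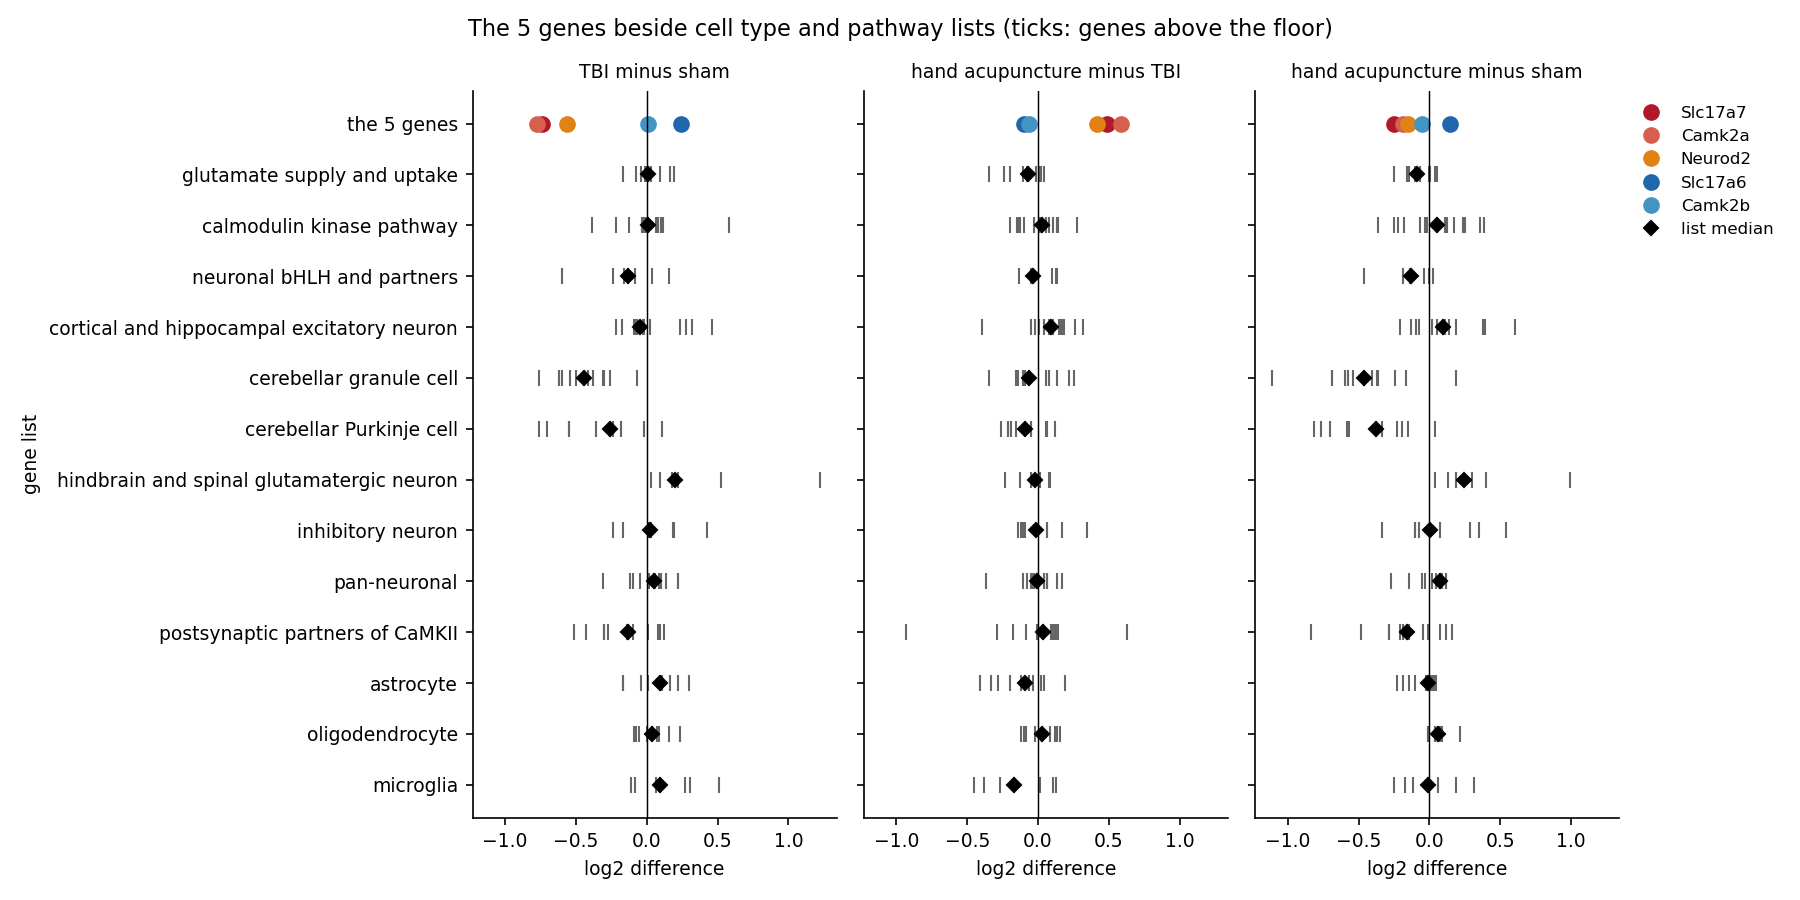
Log2 differences (horizontal axes) of the 5 genes (coloured points, top row) and of the genes above the floor in 13 lists (ticks; diamonds are list medians) in the 3 comparisons. Medians of the granule and Purkinje cell lists lie left of 0 for TBI minus sham and for hand acupuncture minus sham. Slc17a7, Camk2a and Neurod2 lie furthest left of 0 for TBI minus sham and right of 0 for hand acupuncture minus TBI.

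The genes most like each of the 5 over the 3 arrays were found by the distance between their pairs of log2 differences from sham. Nearest to Slc17a7 were Itga7, an integrin subunit, Shisa8, a relative of AMPA receptor auxiliary proteins, and Prmt3, an arginine methyltransferase, at distances of 0.06, 0.06 and 0.07. Nearest to Camk2a were Prmt3 (0.06), Slc17a7 itself (0.07) and Mknk2, a MAP kinase-interacting kinase (0.09). Neurod2 was nearest to Ankrd12, Mcm4, a subunit of the replicative helicase, and Nrros (0.04 to 0.06). Slc17a6 and Camk2b lie where genes are dense, so their nearest genes were closer still. These were Sdc3, Gng2 and Ankrd50 for Slc17a6 and Timp3, Ddit3 and Nalcn for Camk2b, all within 0.005. With 3 arrays such likeness is a description of these pools.

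Beta-actin signal at the 3′ end over that at the 5′ end, a sign of RNA integrity, was 6.69 with hand acupuncture, 6.37 with TBI and 5.58 in sham. The same ratio for Gapdh was nearly level, at 1.28 or less on every array, and was lowest with TBI, so the ratios put the arrays in different orders. The part of RNA integrity in the values of the 5 genes was not tested.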

How the data were processed

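Brainstem RNA of 3 pools was measured on 3 Affymetrix arrays, 1 each for hand acupuncture, TBI and sham, with labelling from 6 µg of total RNA per the labels' protocols. MAS5, which turns a probe set's probes into 1 signal, is named without a version in the submitters' processing notes. The deposited values are log2 signals: the log base and a common scaling were read from the values, since each array had the same mean signal, 500.0, once the top and bottom 2% were left out. The median signal was 174.2 with hand acupuncture, 174.1 with TBI and 174.7 in sham.

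Gene names came from the platform table of 2016, where 20826 of 31099 had exactly 1 gene symbol. A gene took its brightest probe set, and genes at or above the floor were counted. Differences are log2 signals of 1 array minus another, counted past 0.32, the log2 of the fold threshold. With 1 array per group no test was run, and precision is limited by the number of arrays. The 5 genes and the 13 lists (182 genes, of which 155 were matched and 130 above the floor) were chosen with earlier results of these data known. List genes named are up to 4 per list with the largest TBI minus sham difference, and others are named as chosen later or for their place below the floor. MAS5 subtracts mismatch signal, so low signals vary more.

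The settings also tried were an offset of 50 added before taking logs, quantile normalization, median centring, averaging over a gene's probe sets, no floor, a higher floor (9.25) and a 1.5-fold threshold. Python 3.11.15 was used with scipy 1.17.1, matplotlib 3.10.9, pandas 2.3.3 and numpy 2.4.6, and the code was tested on simulated data.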

Additional observations from a re-analysis of the deposited data

How the results depend on the processing

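The values of the 5 genes and the gap between Slc17a7, Camk2a and Neurod2 and the pair Slc17a6 and Camk2b were computed under 4 alternatives. Under quantile normalization, centring on the median and an offset of 50 each stayed within 1 SD of all genes' differences of its value as deposited. The mean of all probe sets, which adds dimmer probe sets, moved TBI minus sham to −0.50 for Slc17a7, −0.20 for Camk2a and −0.54 for the gap. It moved hand acupuncture minus TBI to 0.11 for Slc17a7, 0.014 for Camk2a and 0.22 for the gap. With it, 2 of the 5 genes, without Camk2a, were lower past 0.32 for TBI minus sham, 1 was higher past 0.32 for hand acupuncture minus TBI, and 1 was lower past 0.32 for hand acupuncture minus sham. At 1.5-fold, 1 gene was higher for hand acupuncture minus TBI. No value of a gene or gap past 0.32 changed sign. Of 234 list medians under alternatives, 233 stayed within 1 SD and 1 moved, that of postsynaptic partners of CaMKII for hand acupuncture minus sham with the mean of all probe sets (0.06). This SD is that of single genes, 0.19 to 0.21, so a small median can change sign within it. With all probe sets averaged, the postsynaptic median for TBI minus sham went from −0.13 to 0.007. The cortical and hippocampal median for hand acupuncture minus sham went from 0.10 to −0.03. The higher floor of 9.25 leaves Neurod2 out. No paired analysis was possible because each group has 1 array.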

Other observations

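Camk2d, the delta subunit of CaMKII, has a dimmer probe set whose values, chosen after they were seen, resemble those of Camk2a. It read 8.22 with hand acupuncture, 7.58 with TBI and 8.25 in sham, a log2 difference of −0.67 for TBI minus sham and 0.64 for hand acupuncture minus TBI. The brightest probe set of Camk2d read 12.17 with hand acupuncture, 12.32 with TBI and 12.54 in sham and was lowest on the hand acupuncture array. The third read 8.79 with hand acupuncture, 8.87 with TBI and 9.12 in sham.

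Glial lists give the surroundings of the 5 genes. For TBI minus sham, oligodendrocyte markers had a median of 0.04 with 0 of 9 past 0.32, among them Mag at 0.23, Mobp at 0.16, Olig1 at 0.09 and Opalin at −0.09. Astrocyte markers had a median of 0.09 with 0 of 10 past it, among them Gfap at 0.30, Fgfr3 at 0.22 (its other probe set read −0.31), Gja1 at 0.17 and Aldh1l1 at −0.17. The microglia median was 0.09, and 1 gene of 7 was higher past 0.32, namely P2ry12 at 0.51, whose other probe set read −0.02. C1qc was 0.30 and C1qb 0.27 higher, and Aif1 differed by −0.11. None of these 3 lists had a gene higher past 0.32 for hand acupuncture minus TBI. Lower past 0.32 there were 2 of 10 astrocyte genes, Fgfr3 (−0.41) and Gjb6 (−0.34), 2 of 7 microglia genes, P2ry12 (−0.45) and C1qb (−0.38), and 0 of 9 oligodendrocyte genes. The medians were −0.09 for astrocytes, −0.17 for microglia and 0.03 for oligodendrocytes. The other probe sets of Fgfr3 and P2ry12 read 0.13 and 0.11.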
